A study of Mus musculus with 412 samples.

Results

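The genes described here are 10 transcription factors with known roles in the making of somatosensory neurons: Isl1, Pou4f1, Prdm12, Tlx3, Runx1, Runx3, Pou4f3, Etv1, Shox2 and Maf. They were taken from the deposited expression table by their Ensembl identifiers, which the GRCm38 annotation pairs with these symbols, and all 10 of 10 were among its 45513 genes. Their levels were followed across 325 single colonic sensory neurons, by spinal segment and by the presence of 4 other genes, Gfra3, Piezo2, Mrgprd and Cbln2.

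Sensory neurons of the dorsal root ganglion arise from neural crest cells, and the factors studied here act at successive steps of that process. ISL1 and POU4F1 (BRN3A) are made by nearly all sensory neurons and switch off earlier neurogenic programmes, PRDM12 is required for the nociceptor lineage, and TLX3 is a homeobox protein of excitatory and sensory neurons. RUNX1 and RUNX3 separate non-peptidergic nociceptors from proprioceptors, ETV1 (ER81) is needed by proprioceptors, SHOX2 and MAF shape low-threshold mechanoreceptors, and POU4F3 (BRN3C) is a relative of POU4F1 best known from hair cells.

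The neurons came from C57BL/6J mice whose colon wall had been injected with the retrograde tracer Fast Blue, and no other treatment or genotype was compared. After 3 to 10 days the thoracolumbar (TL) ganglia T10 to L1 and the lumbosacral (LS) ganglia L5 to S2 were dissociated as separate cultures, and single tracer-positive cells were picked by hand. The labels give 203 TL and 196 LS neurons, of which the table holds 167 and 158 after the study's filter for low-quality cells. Its columns hold none of the 13 bath controls. Cells were chosen by tracer alone, and neither the mouse, the sex nor the culture of a neuron is named.

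Each segment is therefore 1 sample in the sense of replication, so no p-value is given for any contrast between segments or classes, and neurons of the same ganglia are not independent replicates. As a measure of repeatability each contrast was recomputed within plates 2 to 6, the sequencing pools that hold both segments. The levels are transcripts per 1000000 (TPM), the deposited values rescaled to the same total in every neuron, a unit that allows for gene length. A gene counted as present in a neuron at 10 or more TPM. A contrast counted as past 2-fold if the ratio of the mean levels reached 2 in either direction and the gene had a mean of at least 1 TPM in 1 of the groups. Intervals are exact binomial ones (Clopper-Pearson, 95%). They cover counting error only, since Smart-seq2 reads carry no molecular identifiers and are not independent molecules.

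Reads assigned to genes ran from 416007 to 12058968 per neuron with a median of 2867071, and no columns were identical. All 8 of the 8 neuronal markers reached 10 TPM in over 50% of neurons, and none of the 6 autonomic neuron markers reached that level in any neuron. Of 10 glial markers 5 did so in over 50% of neurons, against 1 of 10 macrophage markers, 0 of 8 endothelial and 0 of 6 fibroblast markers. The summed glial markers spanned 0 to 100432 TPM, with a median of 2565 TPM in TL and 1428 TPM in LS neurons. Apoe made up most of that sum, with means of 5851 TPM in TL and 2674 TPM in LS neurons. S100b came next and was the only glial marker with a mean not higher in TL (626 against 659 TPM). In what follows, Mrgprd neurons are the 17 with Mrgprd and Cbln2 neurons the 17 with Cbln2 and without Mrgprd. Among the neurons with neither Mrgprd nor Cbln2, Gfra3 neurons are the 156 with Gfra3 but not Piezo2, Piezo2 neurons are the 94 with Piezo2 but not Gfra3, 23 had both genes and 18 had none of the 4. Gfra3 encodes the artemin receptor of peptidergic nociceptors, Piezo2 a mechanically gated channel, Mrgprd a receptor of non-peptidergic nociceptors and Cbln2 a synaptic organiser. Piezo2 lay close to the threshold more often than the others, with 17 neurons from 5 to 10 TPM and 10 from 10 to 20 TPM.

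Shox2 and Tlx3 were the 2 factors past 2-fold higher in Cbln2 neurons and Prdm12 was the one furthest below the other neurons, so the bases just upstream of these 3 genes are shown. They come from RefSeq, build GRCm38.p6, and lie at chr3:66981772-66982021 (minus strand, Shox2), chr2:31639787-31640036 (plus strand, Prdm12) and chr11:33203590-33203838 (minus strand, Tlx3). Capitals mark matches to TATAAA or CCAAT on either strand.
Shox2: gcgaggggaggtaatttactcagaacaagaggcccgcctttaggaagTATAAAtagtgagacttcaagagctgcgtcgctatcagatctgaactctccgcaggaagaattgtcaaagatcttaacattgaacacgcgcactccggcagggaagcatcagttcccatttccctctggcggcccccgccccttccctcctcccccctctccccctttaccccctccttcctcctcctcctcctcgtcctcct
Prdm12: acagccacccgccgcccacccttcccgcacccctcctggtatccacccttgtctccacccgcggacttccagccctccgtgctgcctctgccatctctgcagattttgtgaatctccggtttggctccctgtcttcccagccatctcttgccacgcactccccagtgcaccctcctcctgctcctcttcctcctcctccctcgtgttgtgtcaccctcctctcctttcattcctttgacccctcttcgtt
Tlx3: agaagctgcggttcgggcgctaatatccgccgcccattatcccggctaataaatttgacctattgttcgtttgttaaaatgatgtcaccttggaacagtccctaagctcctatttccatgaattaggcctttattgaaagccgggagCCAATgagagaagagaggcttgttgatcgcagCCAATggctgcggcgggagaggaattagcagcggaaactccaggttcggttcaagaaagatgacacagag

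The Shox2 window held 1 TATAAA, the Tlx3 window 2 CCAAT and the Prdm12 window no match to either, and TGTGGT, which is the core bound by RUNX factors, was in none of the 3. The motifs, searched on both strands, do not overlap in these windows and were chosen after the sequences had been seen. Among all 32851 upstream windows of 250 bases, 12.4% held TATAAA, 33.8% CCAAT and 14.0% TGTGGT. GC content was 55.6% for Shox2, 61.2% for Prdm12 and 48.6% for Tlx3, against a median of 52.4% over all windows. Windows were at hand for 8 of the 10 factors, of which 2 held TATAAA (Etv1 and Shox2), 4 held CCAAT (Isl1, Tlx3, Runx1 and Runx3) and 2 held TGTGGT (Runx3 and Etv1). These counts used whole windows, whereas the 3 sequences shown leave out bases of annotated exons. The Etv1 window with TATAAA had 241 of its 250 bases in annotated exons, and the Runx1 and Runx3 windows had up to 75. The letter matches are descriptions and were not tied to any measurement of binding.

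The factors fell into a broad group and a restricted group. Pou4f1 (chr14:104461676-104467999, minus strand, GRCm38) was present in 320 of 325 neurons (98.5%, 96.4 to 99.5%), where levels averaged 61.0 TPM around a median of 54.4 TPM over all neurons. Isl1 (chr13:116298281-116309689, minus strand) was present in 315 (96.9%, 94.4 to 98.5%), averaging 67.7 TPM around a median of 60.7 TPM. Both were thus found in nearly every colonic neuron of the table. Tlx3 (chr11:33200752-33203589, minus strand) followed in 252 neurons (77.5%) at a median of 20.1 TPM. Prdm12 (chr2:31640037-31655795, plus strand) was present in 245 (75.4%, 70.3 to 80.0%) at a median of 22.5 TPM and a maximum of 316 TPM. Pou4f3 (chr18:42394539-42397249, plus strand) had the highest mean of the 10 factors, 71.2 TPM, but was present in only 211 neurons (64.9%, 59.5 to 70.1%), and its middle 50% of neurons spanned 0.62 to 105 TPM.

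Etv1 (chr12:38779380-38870484, plus strand) was present in 113 neurons (34.8%, 29.6 to 40.2%) and Runx1 (chr16:92601466-92826149, minus strand) in 61 (18.8%, 14.7 to 23.4%). Runx1 was nevertheless seen at low level widely, with a read in 300 of 325 neurons and a median of 4.37 TPM. Shox2 (chr3:66971727-66981771, minus strand) was present in 13 neurons (4.00%), Maf (chr8:115682942-115707794, minus strand) in 8 (2.46%) and Runx3 (chr4:135120652-135177990, plus strand) in 2 (0.615%, 0.0746 to 2.21%). By mean level these 10 factors ranked from the 32.2 percentile (Runx3) to the 94.4 percentile (Pou4f3) of the 34769 genes seen above 0. Pou4f3, Isl1, Pou4f1 and Prdm12 were neighbours in that order, between 46.0 and 71.2 TPM, with standard deviations over neurons of 42.2 to 97.5 TPM, so their order by mean was not separated from the spread among neurons.

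The 4 broad factors, Isl1, Pou4f1, Prdm12 and Tlx3, were present together in 200 of 325 neurons (61.5%), and 3 of the 4 were present in another 92. A neuron had a median of 5 of the 10 factors, with a range of 1 to 7. All 4 broad factors together were found in 71.5% of LS and 52.1% of TL neurons. The plot of levels by class shows the wide overlap of the classes for Isl1 and Pou4f1 and their separation for Pou4f3, Runx1 and Shox2.

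**Figure D1:**
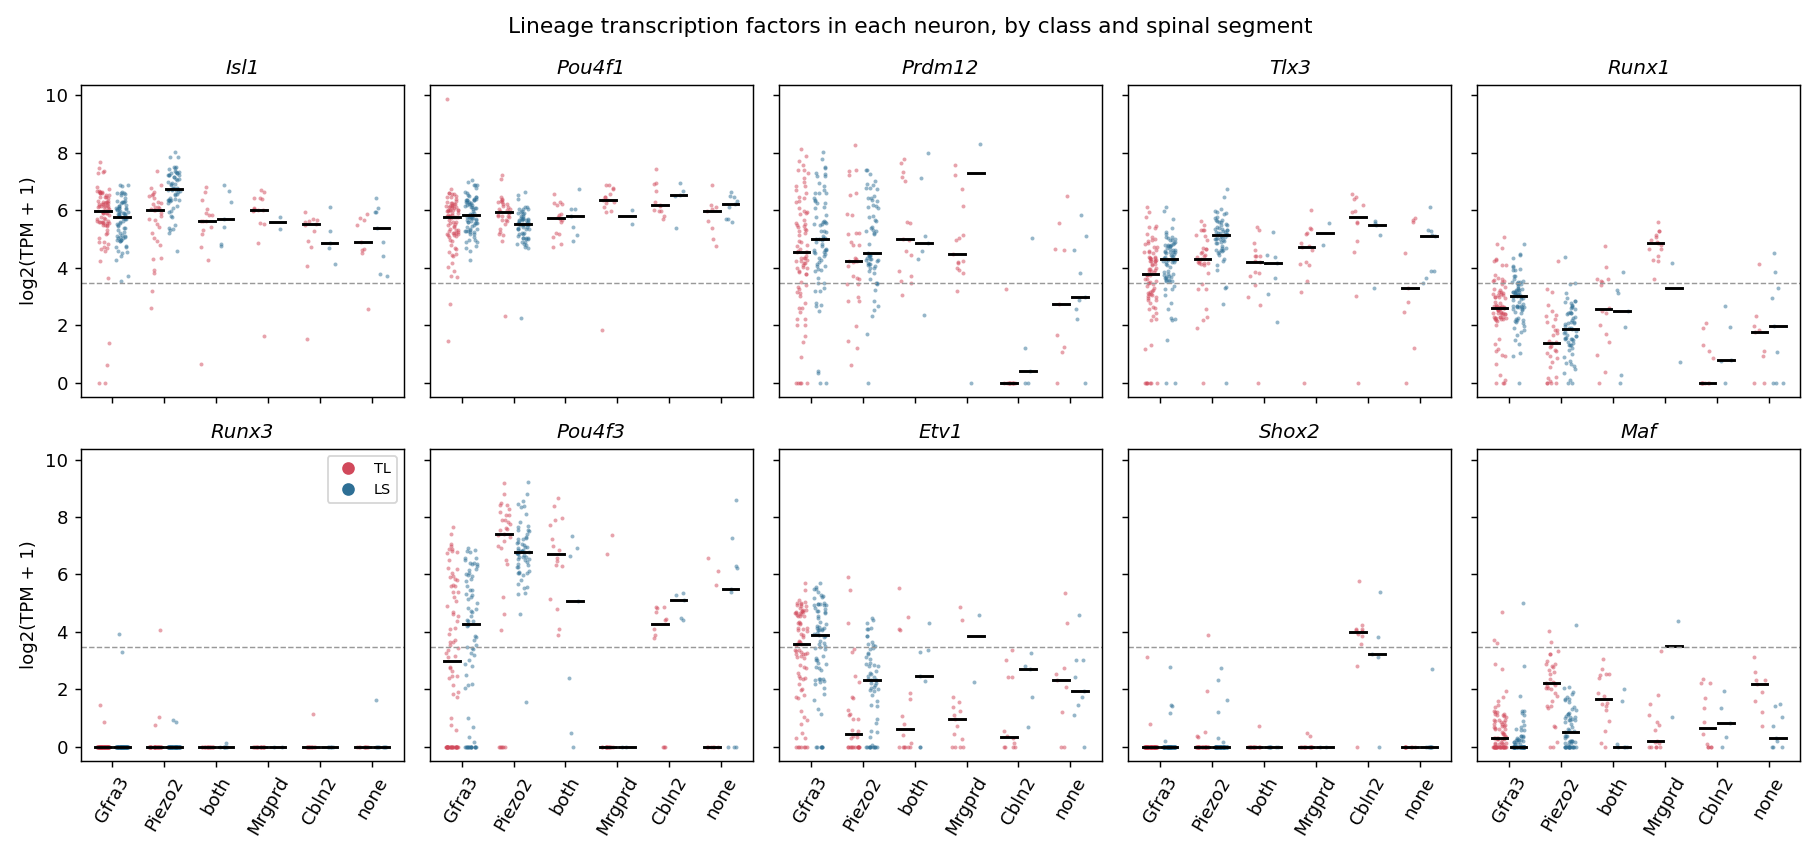
Level of each factor in every neuron, as log2(TPM + 1), by class of neuron; points are single neurons, coloured by segment, black bars are the medians of each class and segment, and the dashed line is 10 TPM. Over both segments Runx1 is highest in Mrgprd neurons (median 26.7 TPM), Pou4f3 in Piezo2 neurons (117 TPM) and Shox2 in Cbln2 neurons (14.1 TPM).

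Gfra3 neurons and Piezo2 neurons differed in 4 of the 8 factors that reached the minimum level, against 18.1% of all genes tested. Runx1 and Etv1 were higher in Gfra3 neurons (8.53% of all genes were higher), and Pou4f3 and Maf were lower (9.55% lower). The median log2 ratio was -0.27 over these 8 factors and -0.01 over all genes tested.

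Pou4f3 showed the widest separation. It ran from 0 through a median of 10.7 to 201 TPM in Gfra3 neurons and from 0 through 117 to 595 TPM in Piezo2 neurons. The ranges overlapped, but the lower quartile of Piezo2 neurons (74.9 TPM) lay above the upper quartile of Gfra3 neurons (47.4 TPM). The means were 29.7 and 151 TPM, 5.09-fold lower in Gfra3 neurons, and the log2 ratio lay between -3.50 and -1.28 in 5 of 5 plates. Pou4f3 was present in 87 of 94 Piezo2 neurons (92.6%, 85.3 to 97.0%) and in 79 of 156 Gfra3 neurons (50.6%, 42.5 to 58.7%). Of the 23 neurons with both genes, 20 had Pou4f3, and the median was 94.4 TPM. The 16 TL neurons among them resembled Piezo2 neurons in this respect, with Pou4f3 in all 16 and a median of 104 TPM. The 7 LS neurons had it in 4 of 7 (18.4 to 90.1%), at a median of 32.5 TPM. That was nearer to LS Gfra3 neurons (58.1%, median 18.2 TPM) than to LS Piezo2 neurons (98.4%, median 108 TPM). Piezo2 itself spanned 15.0 to 28.4 TPM in the 7 LS and 17.1 to 89.4 TPM in the 16 TL neurons. The LS neurons thus lay nearer to the class threshold.

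Etv1 ran the other way. In Gfra3 neurons it spanned 0 to 51.4 TPM around a median of 11.7, and in Piezo2 neurons 0 to 59.4 TPM around a median of 2.69. The 2 ranges therefore coincided while the medians did not. Mean levels were 14.8 and 5.31 TPM, a 2.79-fold difference seen in 5 of 5 plates (log2 ratio 0.61 to 2.01). Etv1 was present in 87 of 156 Gfra3 neurons (55.8%, 47.6 to 63.7%) and 15 of 94 Piezo2 neurons (16.0%, 9.22 to 25.0%).

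Runx1 averaged 7.18 TPM in Gfra3 neurons (0, median 5.40, highest 32.5 TPM) and 3.09 TPM in Piezo2 neurons (0, 2.21 and 19.8 TPM), 2.33-fold higher in the former with the same direction in 5 of 5 plates (log2 0.71 to 2.16). It was present in 32 of 156 (20.5%) against 3 of 94 (3.19%) of these neurons. Most Gfra3 neurons thus had Runx1 below the threshold. The exons of Runx1 overlap those of Gm26626 on the opposite strand, which averaged 0.554 TPM, and the unstranded reads of the 2 genes cannot be told apart.

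Isl1 and Tlx3 did not reach 2-fold but were lower in Gfra3 neurons in 5 of 5 plates. Isl1 averaged 60.6 TPM (median 58.1) in Gfra3 and 94.6 TPM (median 86.8) in Piezo2 neurons. Tlx3 averaged 17.8 and 30.6 TPM. Pou4f1 (62.1 and 51.9 TPM) and Prdm12 (49.0 and 45.5 TPM) were within 1.5-fold and had the same direction in only 3 of 5 and 2 of 5 plates. The plot of ratios by plate shows these contrasts beside those of LS with TL neurons.

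**Figure D2:**
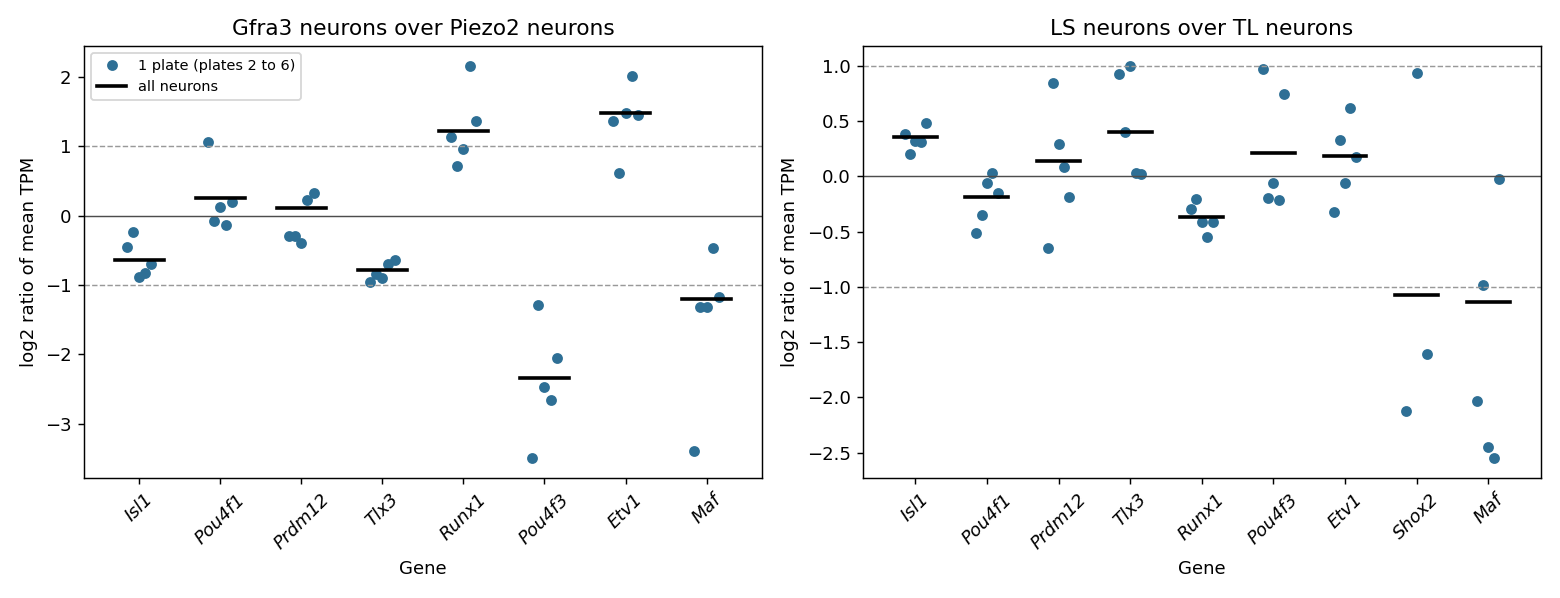
Ratio of mean levels of each factor between Gfra3 and Piezo2 neurons and between LS and TL neurons, as log2 of mean TPM; black bars are all neurons, points single plates and dashed lines 2-fold. In the Gfra3 against Piezo2 contrast every plate lies above 0 for Runx1 and Etv1 and below 0 for Pou4f3.

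The contrast of Gfra3 with Piezo2 neurons was not the same for Isl1 at the 2 levels of the spinal cord. Among TL neurons Isl1 averaged 66.1 TPM in Gfra3 and 59.7 TPM in Piezo2 neurons, with log2 ratios of -0.05 to 0.47 over the plates. Among LS neurons it averaged 54.6 and 113 TPM, a 2.08-fold difference, with log2 ratios of -1.37 to -0.65. The plate ranges did not overlap, and the difference between the segments was not tested, as there was 1 sample of each. Runx1, Pou4f3 and Etv1 kept their direction within each segment in 5 of 5 plates. In TL neurons 4 of 8 factors passed 2-fold (24.4% of all genes tested, 12.6% higher and 11.8% lower in Gfra3 neurons), namely these 3 and Maf. In LS neurons 4 of 8 did so (19.8% of all genes, 9.63% higher and 10.1% lower), namely these 3 and Isl1.

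Mrgprd neurons were marked by Runx1. Of the 9 factors tested, 4 passed 2-fold against all other neurons, where 29.0% of all genes did so. The median log2 ratio of the 9 was 0.19, against -0.05 for all genes tested. Runx1 was higher (11.3% of all genes were), and Pou4f3, Etv1 and Shox2 were lower (17.7% of all genes).

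Runx1 spanned 0.626 to 47.3 TPM with a median of 26.7 TPM in the 17 Mrgprd neurons and was present in 16 of 17 (94.1%, 71.3 to 99.9%). The mean of 25.7 TPM was 4.75-fold that of the other 308 neurons (5.42 TPM), and the log2 ratio was 1.86 to 2.61 in the 4 plates that could be compared. All 15 TL Mrgprd neurons had Runx1, from 11.3 to 47.3 TPM, whereas the 2 LS neurons of this class had 0.626 and 17.1 TPM. The LS neuron at 0.626 TPM of Runx1 had 11.9 TPM of Mrgprd, just above the threshold, whereas the other had 1189 TPM. With 2 LS neurons no comparison of segments was made. Runx1 at 10 TPM was not limited to this class, as 16 of the 61 neurons with Runx1 had Mrgprd, against 1 of the 264 without.

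Pou4f3 was present in 2 of 17 Mrgprd neurons (11.8%, 1.46 to 36.4%) and at 0 in the other 15, with means of 15.9 and 74.2 TPM in Mrgprd and other neurons. Etv1 averaged 5.04 and 10.2 TPM, and its median in Mrgprd neurons was 1.15 TPM. Piezo2 neurons had a similar Etv1 mean, 5.31 TPM. Shox2 averaged 0.0421 TPM in Mrgprd neurons, from 3 reads in all, and 1.04 TPM in other neurons. That 1.04 TPM came mostly from Cbln2 neurons (15.5 TPM). Shox2 averaged 0.331 TPM in Piezo2 neurons, 0.122 TPM in Gfra3 neurons and 0.0289 TPM in neurons with both genes. Low Etv1 and Shox2 were therefore not particular to Mrgprd neurons. All 4 broad factors were present in 14 of 17 Mrgprd neurons. Without plate 6, 2 of 8 factors passed 2-fold in this contrast, and Etv1 did so in 9 of 15 other settings (log2 ratio -1.56 to -0.05), not without plate 3 (-0.94), 4 or 6 (-0.86 each).

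Among the contrasts of classes and segments, that of Cbln2 neurons had the most factors past 2-fold and also the largest share of all genes. Of 9 factors tested, 6 passed 2-fold against the other neurons, where 34.1% of all genes did so, 2 of them higher and 4 lower. The median log2 ratio of the 9 was -0.90, against -0.25 for all genes tested. Shox2 and Tlx3 were higher (8.74% of all genes were), and Prdm12, Runx1, Pou4f3 and Etv1 were lower (25.4% of all genes), each in 4 of 4 plates.

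Shox2, a homeobox gene of TrkB-positive touch neurons, ran from 0 through a median of 14.1 to 53.0 TPM in the 17 Cbln2 neurons and had a mean of 0.186 TPM in the other 308. The mean of 15.5 TPM was 83.5-fold higher, and the plate log2 ratios lay between 4.87 and 6.89. It was present in 12 of 17 Cbln2 neurons (70.6%, 44.0 to 89.7%) and in 1 of the others. That 1 neuron, from TL ganglia, had Piezo2, 13.8 TPM of Shox2 from 34 reads and 24690 TPM of summed endothelial markers. The exons of Shox2 overlap Rsrc1 on the opposite strand, whose mean was 10.1 TPM in Cbln2, 5.43 TPM in Gfra3 and 5.74 TPM in Piezo2 neurons, and unstranded reads from the overlap cannot be told apart.

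Prdm12 was at 0 in 13 of the 17 Cbln2 neurons and present in 1 of 17 (5.88%, 0.149 to 28.7%), at 32.0 TPM. Its means were 2.49 and 48.4 TPM in Cbln2 and other neurons, 19.5-fold lower in the former. No neuron had both Prdm12 and Shox2, of 245 with Prdm12 and 13 with Shox2. Of those 13 neurons 12 were Cbln2 neurons, so this largely restates the low share of Prdm12 in that class. Gm13425, which overlaps the exons of Prdm12 on the opposite strand, had a mean of 0.816 TPM in Cbln2 and 6.57 TPM in all neurons.

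Tlx3 averaged 46.7 TPM in Cbln2 neurons (0, median 46.1, highest 94.9 TPM) and 22.6 TPM in the others, a 2.06-fold difference that was past 2-fold in 10 of 15 other settings (log2 ratio 0.85 to 1.20) and under it without plate 5 (0.87). It was 1.52-fold above the next class, Piezo2 neurons. Runx1 was present in 0 of 17 Cbln2 neurons (0 to 19.5%, where the limit of 3 counts is a share of up to 17.6%), and its mean was 1.12 against 6.77 TPM. Etv1 was also present in 0 of 17, at a mean of 2.92 against 10.3 TPM. Pou4f3 was present in 14 of 17 but low, at a mean of 20.3 TPM and a highest level of 39.7 TPM, against 74.0 TPM in the others. Pou4f1 was highest of all classes in Cbln2 neurons (86.8 TPM) and Isl1 lowest (37.2 TPM), neither past 2-fold. None of the 17 had all 4 broad factors and 15 of 17 had 3 of them. The plot of shares by class sets these side by side.

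**Figure D3:**
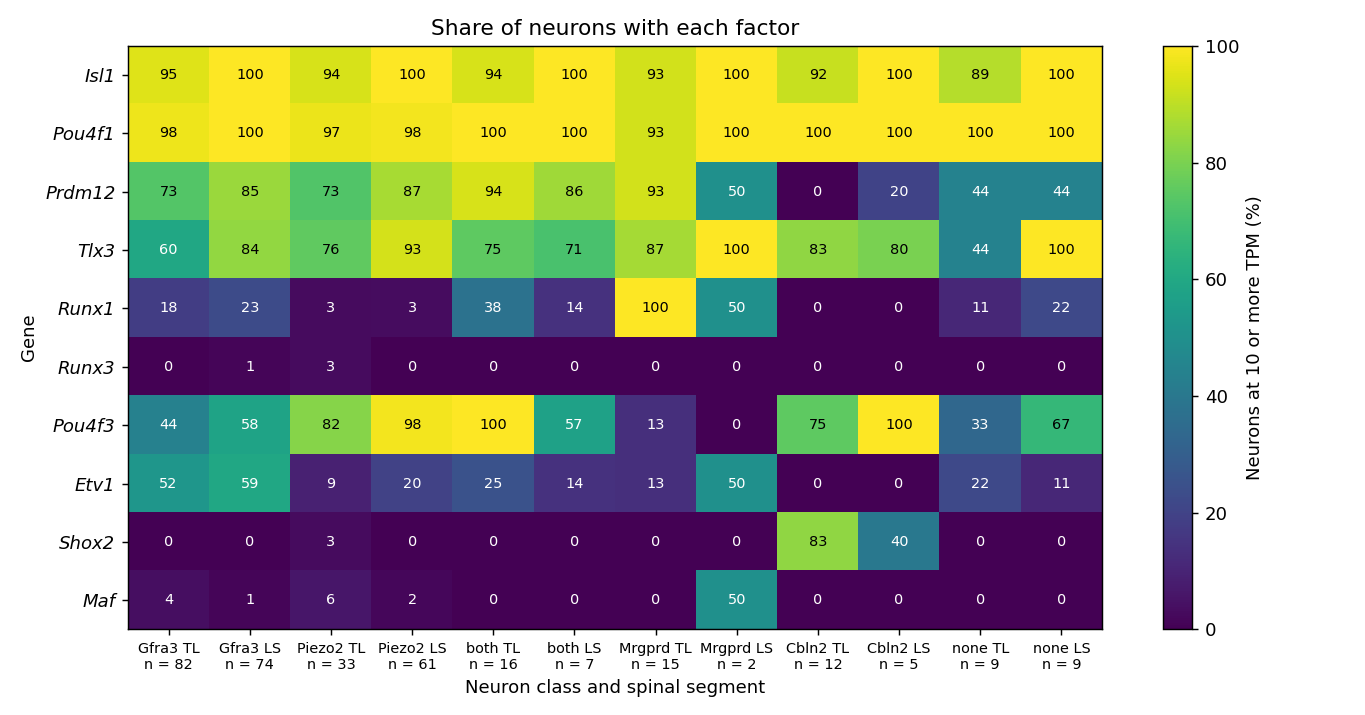
Share of neurons with a factor at 10 or more TPM, in percent, as a heat map; rows are factors, columns are classes split by segment with their number of neurons, and the colour runs from 0 to 100%. Shox2 reached 83.3% in TL and 40.0% in LS Cbln2 neurons, where Prdm12 was at 0 and 20.0%.

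Between LS and TL neurons as a whole 2 of 9 factors passed 2-fold, against 13.8% of all genes tested (6.90% higher and 6.93% lower in LS). Both were rare factors that were lower in LS. The median log2 ratio was 0.14 for the 9 factors and 0.05 for all genes tested. Maf averaged 0.953 TPM in LS and 2.10 TPM in TL neurons (log2 ratio -1.14), lower in LS in 5 of 5 plates, over a range of -2.55 to -0.02. Shox2 averaged 0.630 and 1.32 TPM (log2 ratio -1.07), lower in 4 of 5 plates, but it followed the Cbln2 neurons, of which 12 were TL and 5 were LS. The 12 TL and 5 LS Cbln2 neurons had 16.1 and 14.0 TPM of Shox2. Without plate 3 or plate 6 the Shox2 ratio was -0.60 and -0.76, and without plate 4 neither gene passed 2-fold (Maf -0.95, Shox2 -0.99), while without plate 5 Shox2 reached -2.28 and Maf -0.87.

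Among the broad factors, Isl1 and Tlx3 were modestly higher in LS neurons in 5 of 5 plates, with log2 ratios of 0.20 to 0.49 for Isl1. For Tlx3 they ran from 0.02 to 1.00, and plates 5 and 6 had nearly equal means (25.6 against 25.1 and 27.6 against 27.2 TPM). Isl1 was present in 158 of 158 LS and 157 of 167 TL neurons (94.0%), at means of 76.3 and 59.6 TPM. Tlx3 was present in 139 of 158 LS (88.0%, 81.9 to 92.6%) and 113 of 167 TL neurons (67.7%, 60.0 to 74.7%), at means of 27.3 and 20.7 TPM. Pou4f3 was present in 118 LS (74.7%) and 93 TL neurons (55.7%), with medians of 55.2 and 16.0 TPM and means of 76.5 and 66.1 TPM. The ratio of means had the direction of the whole in 2 of 5 plates, and the difference in mean log2(TPM + 1) was 1.20. LS neurons were somewhat deeper, with a median of 3202780 reads against 2709640 in TL. With every neuron thinned to 500000 reads, which left out 3 LS and 1 TL neurons, a Pou4f3 read was found in 85.2% of LS and 62.0% of TL neurons (86.7% and 66.5% before thinning), and a Tlx3 read in 97.4% and 91.0% (98.1% and 92.8%).

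The segments differ in their makeup of classes, with 61 LS and 33 TL Piezo2 neurons and 2 LS and 15 TL Mrgprd neurons, so the contrast was repeated within classes. The finer subtypes that the study defined were not used here, so a different makeup of subtypes in the segments and a change within a subtype cannot be told apart. Among Piezo2 neurons Isl1 spanned 5.10 to 165 TPM in TL (median 63.0) and 22.8 to 259 TPM in LS (median 107). The mean was 1.90-fold higher in LS, with log2 ratios of 0.66 to 1.10 in 5 of 5 plates. Tlx3 was 1.76-fold higher (36.1 against 20.5 TPM, 5 of 5 plates), and Pou4f1 was lower in LS in 5 of 5 plates (46.1 against 62.8 TPM). Of 8 factors only Maf passed 2-fold within Piezo2 neurons, where 22.3% of all genes did so (11.9% higher and 10.4% lower in LS). In Gfra3 neurons 0 of 8 did, against 16.6% of genes (8.41% higher and 8.15% lower). There Isl1 was slightly lower in LS (54.6 against 66.1 TPM, 4 of 5 plates). Tlx3 was higher in 5 of 5 plates (20.0 against 15.8 TPM), with log2 ratios from 0.02 to 1.06. Within classes Pou4f3 was not clearly higher in LS. Among Piezo2 neurons its mean was lower in LS (138 against 176 TPM, medians 108 and 167 TPM, 3 of 5 plates). Its share there was higher (98.4% against 81.8%). Among Gfra3 neurons the means were 31.4 TPM in LS and 28.2 TPM in TL, and the shares 58.1% and 43.9%.

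Prdm12 differed between plates more than between segments. On plates 1 to 3 it averaged 16.3 TPM (median 14.3, 100 neurons) and on plates 4 to 6 59.3 TPM (median 33.7, 225 neurons), and it was present in 62.0% and 81.3% of them. The same step was seen within classes, from 15.4 to 59.5 TPM in Gfra3 and from 18.1 to 62.6 TPM in Piezo2 neurons. The earlier plates were the deeper ones, with medians of 4914740 and 5441610 reads for plates 2 and 3 against 2187480 to 2605150 for plates 4 to 6. Gm13425, the overlapping gene, did not show the step (7.37 and 6.21 TPM). Both segments were on plates 2 to 6, so the LS against TL contrast of Prdm12, 48.4 against 43.8 TPM, was spread over both blocks, and its direction held in 3 of 5 plates. What differed between the plates was not tested.

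**Figure D4:**
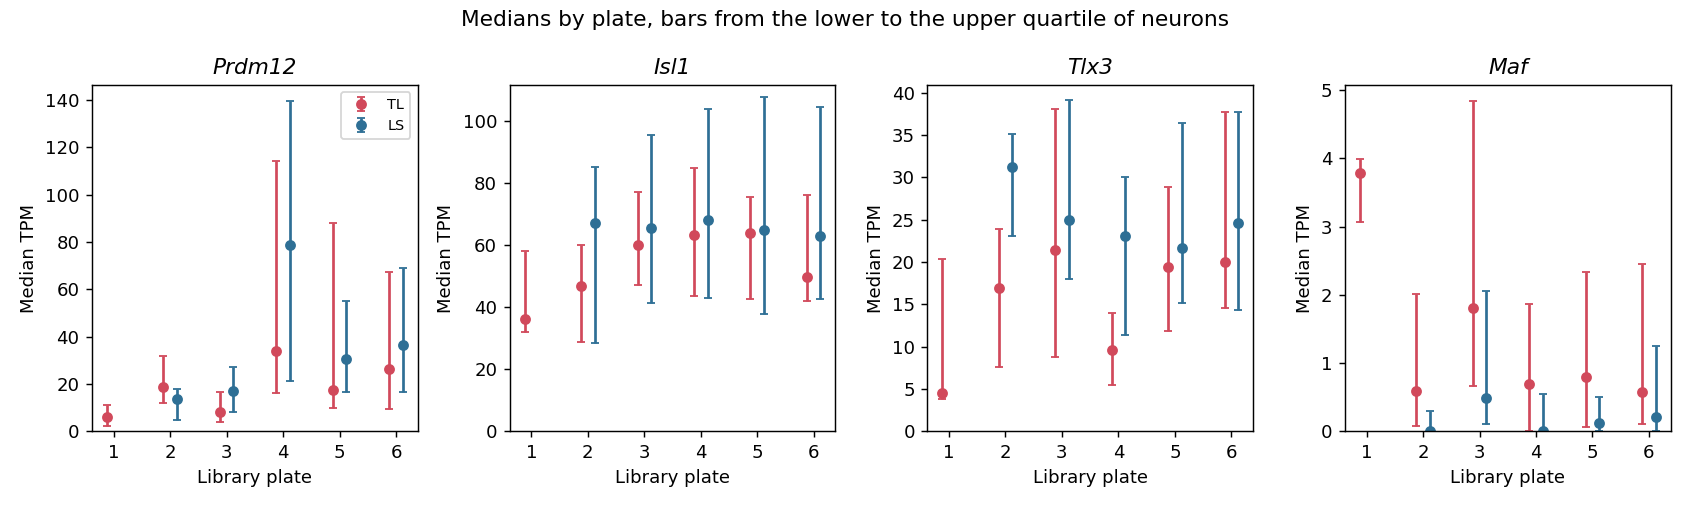
Median level of Prdm12, Isl1, Tlx3 and Maf in TPM by library plate and segment; points are medians and error bars run from the lower to the upper quartile of neurons. Over both segments the Prdm12 median was 11.4 TPM on plate 3 and 55.1 TPM on plate 4, while that of Isl1 was 61.2 and 66.8 TPM.

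Runx3, the proprioceptor factor, was present in 2 neurons and had a read in 12. The first, a TL Piezo2 neuron of plate 3, had 15.8 TPM from 174 reads together with 65.2 TPM of parvalbumin (Pvalb) and 65.2 TPM of Ntrk3, the neurotrophin-3 receptor gene. The second, an LS Gfra3 neuron of plate 5, had 14.3 TPM from 156 reads, with 1.32 TPM of Pvalb and Ntrk3 at 0. The 2 neurons were thus unlike each other in these genes, and no further description of Runx3 can rest on them.

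Maf levels ran together with glial transcripts. Spearman's rho of Maf with the summed glial markers was 0.61 over 325 neurons, and 5 of the 8 neurons with Maf, including the 3 highest, had glial sums of 44136 to 73135 TPM, whereas the other 3 had 3947 to 5716 TPM. The median glial sum was 4339 TPM in TL and 2035 TPM in LS Piezo2 neurons, the groups in which Maf averaged 4.37 and 1.03 TPM, and 963 TPM in Gfra3 neurons. Without the 10% of neurons highest in glial markers, Maf was still lower in LS than TL (log2 ratio -1.43) and lower in Gfra3 than Piezo2 neurons (-2.59). The part of glial RNA in the Maf values of single neurons was not tested. Isl1 had a rho of 0.42 with the number of genes detected and of -0.40 with the share of ribosomal RNA, and the part of these in its contrasts was likewise not tested. Etv1 had a rho of 0.33 with the summed fibroblast and 0.31 with the summed macrophage markers, and Runx1 of 0.28 with the former. The fibroblast sum, in which Dcn had the highest mean (160 TPM), had a median of 61.1 TPM in Gfra3 and 2.73 TPM in Piezo2 neurons. Its part in the Etv1 and Runx1 contrasts was not tested.

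Pairs of factors were weakly related from neuron to neuron. Over 325 neurons, 37 of the 45 pairs had a Spearman's rho under 0.2 in size and 1 pair exceeded 0.3. That pair was Pou4f3 and Etv1, at -0.44, with -0.56 to -0.23 within plates, -0.38 within Gfra3 and -0.43 within Piezo2 neurons. Etv1 was present in 22.3% of the 211 neurons with Pou4f3 and in 57.9% of the 114 without. Since points share depth and library, these coefficients are descriptions without a test. Next came Pou4f1 with Pou4f3 (-0.30), Isl1 with Pou4f3 (0.30), Runx1 with Shox2 (-0.26) and Isl1 with Tlx3 (0.25). The heat map of coefficients gives all pairs.

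**Figure D5:**
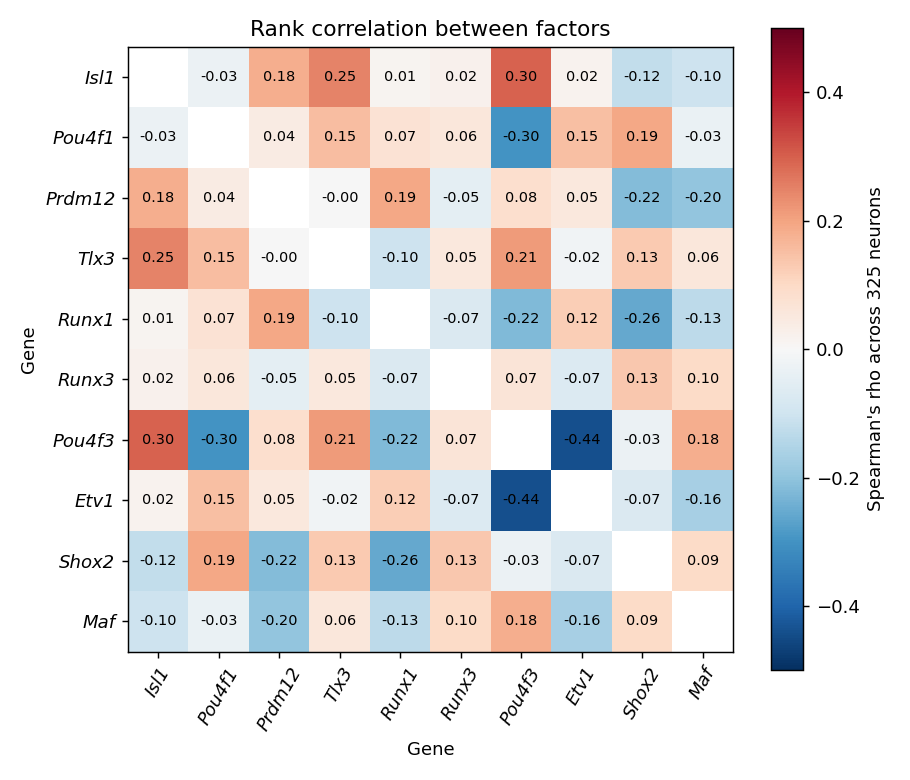
Spearman's rho between the 10 factors over 325 neurons on log2(TPM + 1); each cell is 1 pair with its value and the colour runs from -0.5 (blue) to 0.5 (red). Pou4f3 and Etv1 form the darkest cell, at -0.44.

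For each factor the genes with the most similar pattern were found among 11450 genes present in at least 6% of neurons, by Spearman's rho over the 325 neurons. Runx1 was closest to Cd44 (0.64), Stard13 (0.61) and Scd1 (0.54). Pou4f3 was closest to Cyp1b1 (0.64), Sema5a (0.63) and the prostacyclin receptor gene Ptgir (0.61). Etv1 was closest to Ighm (0.57), Car8 (0.54) and Gpx3 (0.51). These 9 genes had a positive coefficient in each of plates 2 to 6. They were picked over the same neurons, so this is no independent support. Of the genes named for the other factors, only Prph had a negative coefficient in a plate.

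Shox2 was closest to the vesicular glutamate transporter gene Slc17a7 (0.47) and to Vsnl1 (0.44), which averaged 24.7 and 167 TPM in Cbln2 and 0.178 and 0.514 TPM in Gfra3 neurons. Isl1 was closest to Mgat4a (0.53), Pgam1 (0.48) and Tmem117 (0.47). Pou4f1 was closest to Palmd (0.48), Tpd52 (0.44) and Mapk10 (0.44), and Tlx3 to Fhl1 (0.48), Rtn4rl1 (0.47) and Cpne8 (0.45). Maf was closest to Mbp, Pon2 and Nfia, each at 0.63, of which Mbp is a myelin gene. Prdm12 was closest to peripherin (Prph, 0.52), Basp1 (0.51) and Ywhah (0.51), but the coefficient with Prph ran from -0.19 to 0.68 over plates. Runx3 had no gene above 0.24, the value for Rpph1, with Ccdc124 at 0.22 and Kcnip2 at 0.21.

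Of a list of 30 other transcription factors of the sensory lineage 29 were in the table and 19 reached the minimum level. Of these 19, 7 passed 2-fold between Gfra3 and Piezo2 neurons (18.1% of all genes tested), 9 for Mrgprd neurons (29.0%), 10 for Cbln2 neurons (34.1%) and 5 between LS and TL (13.8%). Hmx1 averaged 20.1 TPM in Gfra3 and 1.01 TPM in Piezo2 neurons, a 19.9-fold difference, and was 0.676 TPM in Cbln2 against 10.9 TPM in other neurons. Cbfb, which encodes the partner subunit of RUNX proteins, averaged 32.8 TPM in Mrgprd and 130 TPM in other neurons, 3.96-fold lower in the class where Runx1 was highest. Isl2, the paralogue of Isl1, averaged 509 TPM in Mrgprd and 160 TPM in other neurons, and Zfhx3 14.3 and 1.29 TPM. In Cbln2 neurons Pou4f2, the remaining BRN3 gene, averaged 14.0 against 2.94 TPM, and Scrt2 18.1 against 5.39 TPM.

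Receptor and effector genes known from the biology of these factors, 21 in all and 20 of them at the minimum level, were compared between neurons with and without each factor at 10 TPM. With Runx1, 9 of 20 passed 2-fold (15.1% of all genes tested), 3 higher and 6 lower. The GDNF family receptor gene Gfra2 averaged 65.0 TPM in neurons with Runx1 and 2.51 TPM in those without, and the ATP receptor gene P2rx3 186 and 68.1 TPM. Neurofilament heavy chain (Nefh) averaged 56.7 and 166 TPM, the serotonin receptor gene Htr3a 194 and 927 TPM, and osteopontin (Spp1) 10.4 and 453 TPM. Each of these held in 5 of 5 plates. Of the 61 neurons with Runx1, 16 had Mrgprd. Gfra2 and P2rx3 averaged 204 and 454 TPM in Mrgprd neurons, 2.48 and 45.5 TPM in Gfra3 neurons and 2.48 and 112 TPM in Piezo2 neurons.

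With Pou4f3, 8 of 20 passed 2-fold (11.2% of all genes tested), 5 higher and 3 lower. Htr3a averaged 1071 TPM with and 268 TPM without Pou4f3, Nefh 188 and 66.8 TPM, Spp1 566 and 8.09 TPM, and the BDNF receptor gene Ntrk2 39.6 and 17.2 TPM, while Gfra2 was lower at 4.72 and 31.9 TPM. With Etv1, 8 of 20 passed (9.55% of all genes tested), 2 higher and 6 lower. Substance P precursor (Tac1) averaged 3188 TPM with and 1393 TPM without Etv1 and the capsaicin receptor gene Trpv1 1105 and 458 TPM, whereas P2rx3 was lower at 49.5 and 112 TPM and Nefh at 71.3 and 185 TPM (4 of 5 plates). Nefh was thus higher with Pou4f3 and lower with Etv1, although 47 neurons had both factors.

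With Prdm12, 10 of 20 passed (14.3% of all genes tested), 6 higher and 4 lower. The nociceptor sodium channel gene Scn10a averaged 221 TPM with and 84.9 TPM without Prdm12 and P2rx3 105 and 46.3 TPM, while Ntrk2 was lower at 22.2 and 61.0 TPM, Ntrk3 at 1.78 and 7.62 TPM and Pvalb at 3.14 and 14.2 TPM. Each held in 5 of 5 plates except Pvalb, which held in 4. With Tlx3, 4 of 20 passed (11.5% of all genes tested), 3 higher and 1 lower, among them Htr3a at 924 and 324 TPM and Spp1 at 475 and 8.62 TPM. The neurons with each factor differ in class, segment and plate, and the part of these in the differences was not tested.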

How the data were processed

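Single-cell RNA was measured in 325 colonic sensory neurons. Per the labels and the study's methods, the authors picked tracer-positive neurons by hand, made Smart-seq2 libraries in 6 pools (plates), demultiplexed them with bcl2fastq 2.15.0.4, aligned them with STAR 2.4.1 to GRCm38.p3 and assigned reads to genes with featureCounts 1.4.4, without strand or molecular identifiers. The deposited values are log2(x + 1), up to 21.9, with x a read count divided by gene length and scaled per neuron. Here x was recovered as 2 to the power of the value, less 1, and rescaled to 1000000 per neuron (TPM); the genes were matched by Ensembl identifier.

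Reads behind each value were recovered as whole multiples of the value of 1 read in a neuron, given gene length. With annotated exon lengths 65.0% of values above 0 were whole numbers of reads to a relative tolerance of 1e-09, and 100% were once the lengths of 8712 genes had been read from the values. They gave 416007 to 12058968 reads per neuron and served to give read numbers, depth, thinning and, as an alternative, reads per 1000000 (CPM).

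Groups are the segment labels and classes set by Gfra3, Piezo2, Mrgprd and Cbln2 at 10 TPM. With 1 sample per segment there is no test: group means, medians, ranges, shares with Clopper-Pearson intervals and ratios within plates are given. Ratios were called at 2-fold over the whole table, where 1 group averaged 1 TPM or more, and the share called is given beside each count. Named besides the 10 factors are the 4 class genes, the 3 genes closest to each factor by Spearman's rho on log2(TPM + 1) (1 of these genes is not reported here), listed lineage factors past 2-fold at a mean of at least 10 TPM, and members of the receptor list. The factors, classes and lists were chosen with earlier results of these data known, and the upstream motifs after their sequences were seen. Doublets were not called, as cells were picked singly, and no neuron of the table was left out of the values reported. Before clustering, the study had removed some of these 325 neurons for satellite glial content, and they were kept here. Neurons absent from the table and bath controls were not analysed here. Alternatives covered scaling, CPM, the pseudocount (0.1 in place of 1), thresholds, thinning, neurons within 3 median absolute deviations of the median, and leaving out each plate. Scripts used Python 3.11.15, numpy 2.4.6, scipy 1.17.1, pandas 2.3.3 and matplotlib 3.10.9 and were tested on simulated data.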

Additional observations from a re-analysis of the deposited data

How the results depend on the processing

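Of the ratios and shares of single factors recomputed under other settings, 577 stayed within the standard deviation between plates (shares: within their interval) and 85 moved beyond it. On the log2 scale that deviation was 0.105 for Isl1 and 1.63 for Shox2 in LS against TL, and 3.89 for Prdm12 in Cbln2 neurons. Where it was wide, staying within it says little about stability. Under settings chosen after seeing the data 111 stayed, 24 moved and 1 reversed. The reversal was Shox2 in LS against TL, 0.47 on the log2 scale in Gfra3 neurons alone. The number of factors past 2-fold between LS and TL, 2 with all neurons, was 1 with neurons within 3 median absolute deviations, with unscaled values, with CPM without ribosomal RNA and as a mean of log2(TPM + 1), where the factor was Pou4f3, higher in LS at 1.20. It was 0 with a minimum mean of 10 TPM or at 3-fold, 1 on plates 4 to 6 alone or in Piezo2 neurons alone, 0 in Gfra3 neurons alone, and 0 to 2 with a plate left out, 0 without plate 4. Between Gfra3 and Piezo2 neurons the number was 4, and 2 with a minimum mean of 10 TPM, 1 at 3-fold and 4 whichever plate was left out. For Mrgprd neurons it was 4, and 2 to 4 with a plate left out. For Cbln2 neurons it was 6, and 5 to 6 with a plate left out. The number of factors present in over 50% of neurons was 5 and stayed 5 with any plate left out, but was 7, with Runx1 and Etv1 added, in CPM or after thinning, which do not divide by gene length. Runx1, Pou4f3 and Etv1 between Gfra3 and Piezo2 neurons, Runx1 and Pou4f3 in Mrgprd neurons, and Prdm12, Runx1, Etv1 and Shox2 in Cbln2 neurons were past 2-fold in 15 of 15 other settings. Past 2-fold in fewer of the 15 were Maf between Gfra3 and Piezo2 neurons (13), Shox2 (13) and Etv1 (9) in Mrgprd neurons, and Pou4f3 (13) and Tlx3 (10) in Cbln2 neurons. Between LS and TL, Maf was so in 10 of 13 and Shox2 in 5 of 13. Plates 2 and 3 alone held too few Mrgprd and Cbln2 neurons and were not run for them. The cause of these shifts was otherwise not tested. No paired analysis was possible because the labels give the neurons no mouse or replicate number that pairs them across segments, and ratios within plates are given instead. The number of neurons limits the shares: 0 of 17 has a Clopper-Pearson bound of 19.5%.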
